A study of Mus musculus with 15 samples.

Results

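Bone macrophages of VLDLR knockout mice (VLDLR_KO) were set against bone macrophages of ROBO4 knockout mice (ROBO4_KO), with 5 libraries of each genotype, 10 of the 15 libraries of a series whose other 5 libraries are wild type (WT). The libraries were taken by their genotype label. All 3 genotypes carried the strain label C57BL6J, and all cells had spent 14 days in culture with M-CSF at 20 ng/ml, a cytokine on which macrophages depend for survival. How the alleles were made is not given in the sources used here, and no label tells if a group's libraries stem from different mice or dishes. The p-values therefore speak only for the spread among these libraries, which may be technical. The sample codes come in 2 forms, with the digit ahead of the letter B or behind it, which the labels do not explain. Each knockout had 2 libraries with the digit before B (replicates 1 and 2) and 3 with the digit after B (replicates 3 to 5), so the code form was a covariate in the fit over the 10 libraries unless stated otherwise, and values within each form are given where they matter.

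VLDLR is a receptor of the LDL receptor family that takes up apolipoprotein E-rich lipoproteins and carries reelin signals, and ROBO4 is the Roundabout receptor best known from endothelium. Macrophages use many other lipoprotein receptors, and Slit and Robo proteins are guidance cues that also act on migrating leukocytes. The series title links VLDLR to QKI, an RNA-binding protein that shapes splicing and the formation of circular RNA, and to a circular RNA of Slc17a5, the gene of the lysosomal sialic acid exporter. Comparing the knockouts with each other asks which genes differ between cells from mice of one knockout and cells from mice of the other.

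The 10 libraries held 18132866 to 19005966 estimated counts each, and 11909 genes passed the filter on low counts. Levels are given as CPM, counts scaled to a common library size with TMM factors. A gene is called when its adjusted p from edgeR is under 0.05, and log2 fold changes are VLDLR_KO minus ROBO4_KO, with standard errors (SE). Macrophage genes were high in every library: the summed level of the 24 macrophage genes found was 29950 to 36930 CPM in ROBO4_KO and 33970 to 54130 CPM in VLDLR_KO. Lists of markers of other cells were detected as well, with summed levels over the 10 libraries of 14.1 to 36.4 CPM for T and NK cells, 8.90 to 66.3 for B cells, 52.6 to 191 for neutrophils, 370 to 2567 for dendritic cells, 1.56 to 37.4 for mast cells and basophils and 22.4 to 908 for extracellular matrix and fibroblasts. Single members of these lists were at 0 in all 10 libraries: Cd3e and Gzmb, Pax5, Prtn3, Siglech, Mcpt8 and Ms4a2, and Lum. The part of other cells in the results was not tested.

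In a principal component analysis of log2 CPM, the first component (41.3% of the variance) followed the code form. On it, VLDLR_KO replicates 1 and 2 lay at -58.7 and -82.2, beyond ROBO4_KO replicates 1 and 2 at -19.9 and -17.9. The second component (28.8%) separated the knockouts, with ROBO4_KO at 15.1 to 51.9 and VLDLR_KO at -16.5 to -43.6. VLDLR_KO replicates 1 and 2 therefore stood apart from the rest, and counts are given with and without them where that matters.

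**Figure D1:**
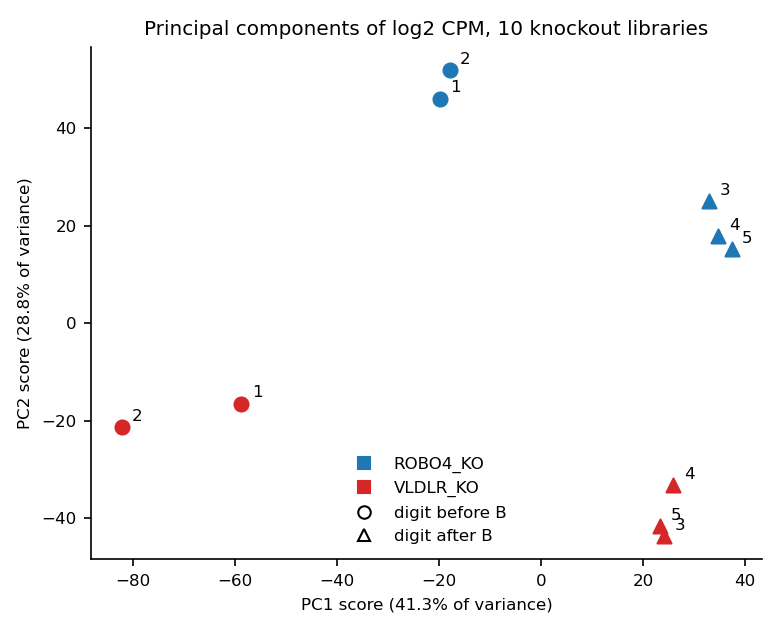
Principal component scores (no unit) of log2 CPM for the 10 knockout libraries. Each point is 1 library, with its replicate number beside it. Red points are VLDLR_KO and blue points ROBO4_KO, circles have the digit before B and triangles after it. The second component keeps the knockouts apart in both forms, while VLDLR_KO replicates 1 and 2 lie farthest to the left.

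The knockouts differed in 1229 genes (10.3% of those tested), 555 higher (4.66%) and 674 lower (5.66%) in VLDLR_KO. Of these, 213 genes (1.79% of those tested) were called with at least a 4-fold difference, 88 higher (0.739%) and 125 lower (1.05%). In 994 genes (8.35%) the libraries of the groups did not overlap, with VLDLR_KO above in 3.54% and below in 4.81% of the tested genes. The count rested on the code form in the model and on single libraries: it was 526 without the form, and 728 to 1696 with 1 library left out. The lowest counts came without VLDLR_KO replicate 5 (728), ROBO4_KO replicate 2 (787) or ROBO4_KO replicate 4 (814), and the highest without VLDLR_KO replicate 2. Without VLDLR_KO replicates 1 and 2 it was 1635, of which 906 were among the 1229. In these bulk samples, fewer cells of a type and less RNA per cell cannot be told apart.

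Vldlr, the targeted receptor gene of one group, was near the limit of detection in both knockouts and in WT (0.28 to 1.87 CPM). ROBO4_KO replicates 1 to 5 had 0.533, 1.96, 0.612, 0.104 and 0.307 CPM, and VLDLR_KO replicates 0.109, 0.297, 0.053, 0.502 and 0.477 CPM. The groups overlapped, and the log2 fold change of -1.07 (SE 0.76) was not called (adjusted p = 0.409). It was -2.61 with the digit before B (adjusted p = 0.0962) and 0.02 with the digit after B (adjusted p = 0.995). Robo4 was detected in a single knockout library, VLDLR_KO replicate 4, with 1 count. In the remaining 9 libraries a count of 0 allows up to 3 counts, or 0.154 to 0.178 CPM by library. The WT libraries together held 6 counts of Robo4. With both genes this low in WT too, these levels check the genotype labels only weakly.

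Qk, the gene of QKI (chr17:10187543-10319361, minus strand, GRCm38.p6), was lower in VLDLR_KO. ROBO4_KO replicates 1 to 5 had 285, 256, 292, 273 and 279 CPM, and VLDLR_KO replicates 192, 120, 219, 216 and 188 CPM. No VLDLR_KO library reached the lowest ROBO4_KO library. The log2 fold change was -0.58 (SE 0.13, adjusted p = 0.0191), -0.80 with the digit before B (adjusted p = 0.0243) and -0.44 with the digit after B (adjusted p = 0.134). The call was lost without ROBO4_KO replicate 1 (adjusted p = 0.0541) or VLDLR_KO replicate 5 (0.0573), and without the code form in the model (0.0597). Fitted alone, the 4 libraries with the digit before B gave no call (0.148).

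Among the transcripts, where 449 of 34032 (1.32%; 0.491% higher and 0.829% lower) were called, the Qk transcript NM_001159516.1 fell by 0.75 on the log2 scale (SE 0.11, adjusted p = 0.0106). It had a mean of 162 CPM in ROBO4_KO and 96.2 CPM in VLDLR_KO, and the call held with any 1 library left out. NM_021881.2 differed by -1.26 (SE 0.27, adjusted p = 0.0658) and NM_001159517.1 by -0.24 (SE 0.19, adjusted p = 0.752), neither of them called. Without VLDLR_KO replicate 2, NM_021881.2 was called too (adjusted p = 0.0055). The transcript count itself was 242 to 281 without any 1 of the ROBO4_KO libraries and 260 without VLDLR_KO replicate 5. Slc17a5 had 104 ± 17.7 CPM (mean ± SD, n = 5, as in all such values here) in ROBO4_KO and 89.0 ± 15.7 CPM in VLDLR_KO. Its log2 fold change was -0.23 (SE 0.08, adjusted p = 0.116). Of the alternatives only the fit over all 15 libraries called it (adjusted p = 0.0446), with log2 fold changes of -0.27 to -0.19 among them. The linear transcripts of Slc17a5 say nothing of the circular RNA, which was not analysed here.

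Antiviral genes of the Trim and Ifi200 families gave the highest share of calls among the 30 lists of macrophage functions. Trim proteins are ubiquitin ligases, several of which bind viral capsids or act in innate sensing, and the Ifi200 proteins are DNA-binding proteins induced by interferon. Of 18 tested members, 2 were called higher and 12 lower in VLDLR_KO (77.8%, beside 10.3% of all genes), with a median log2 fold change of -0.53 against 0.01 for all genes. With 1 library left out, 9 to 12 were called lower, and without VLDLR_KO replicates 1 and 2 the counts were 3 higher and 11 lower. The list was chosen with earlier results of these data known, so its direction is a description.

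The promoters of 4 Trim genes are shown because each gene was called lower and they lie at neighbouring places on chromosome 7. Sums with near copies are given below, and that of Trim12a and Trim12c was not called. The promoters also show which of these windows hold a sequence that interferon-regulated factors are known to bind. They are the 250 bases before the annotated start from RefSeq (GRCm38.p6), read 5′ to 3′ on the gene's strand. Capitals mark the motif searched on both strands, a pair of GAAA repeats set apart by any 2 bases, shown as its reverse complement where it lies on the other strand.
Trim30d, chr7:104507850-104508099, minus strand: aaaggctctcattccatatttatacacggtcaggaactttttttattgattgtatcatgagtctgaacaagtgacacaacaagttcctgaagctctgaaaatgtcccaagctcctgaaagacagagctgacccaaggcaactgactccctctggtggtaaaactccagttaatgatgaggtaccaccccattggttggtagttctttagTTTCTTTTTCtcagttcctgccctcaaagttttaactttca
Trim5, chr7:104288107-104288356, minus strand: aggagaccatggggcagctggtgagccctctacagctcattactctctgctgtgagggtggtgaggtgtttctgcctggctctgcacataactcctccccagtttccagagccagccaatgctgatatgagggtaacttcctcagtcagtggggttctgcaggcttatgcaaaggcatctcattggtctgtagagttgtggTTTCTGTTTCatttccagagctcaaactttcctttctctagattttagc
Trim12a, chr7:104315496-104315745, minus strand: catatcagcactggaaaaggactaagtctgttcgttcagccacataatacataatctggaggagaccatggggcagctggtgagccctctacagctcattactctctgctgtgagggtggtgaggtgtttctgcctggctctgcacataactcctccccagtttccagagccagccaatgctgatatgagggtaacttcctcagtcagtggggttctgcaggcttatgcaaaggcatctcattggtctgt
Trim34a, chr7:104244207-104244456, plus strand: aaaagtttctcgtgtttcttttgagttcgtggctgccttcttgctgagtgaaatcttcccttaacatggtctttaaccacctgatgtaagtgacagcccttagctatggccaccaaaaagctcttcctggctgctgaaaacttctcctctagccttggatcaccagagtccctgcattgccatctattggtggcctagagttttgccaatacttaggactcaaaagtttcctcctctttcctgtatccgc

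The match began 41 bases before the start in Trim30d and 49 bases before it in Trim5, on the reverse strand in both. The windows of Trim12a and Trim34a held none. The letters occurred in 978 of 32851 promoters of this length (2.98%). Counted per gene with any such promoter, they occurred in 8 of the 17 tested Trim and Ifi200 genes with a promoter in the table. Of these 17 genes 11 were called lower, 7 of them with the letters. Of the 6 genes not called lower, 1 held them. A link between the letters and the calls was not tested. Trim5 and Trim12a shared an identical run of 191 bases. The run closed the Trim12a window and lay ahead of the match in Trim5. Bases of Trim12a past the end of that run lay outside its window and were not searched.

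Trim30d had 20.4, 18.6, 20.2, 21.0 and 19.6 CPM in ROBO4_KO replicates 1 to 5, and 0.0545, 0, 0.212, 0.279 and 0.424 CPM in VLDLR_KO. Every VLDLR_KO library was near 0 while every ROBO4_KO library was near the WT mean of 21.7 CPM (log2 fold change -6.65, SE 0.37, adjusted p = 1.89e-06). Trim12a fell from 16.2 ± 1.68 to 0.182 ± 0.189 CPM (adjusted p = 1.46e-05) and Trim5, a retrovirus restriction factor in primates, from 11.8 ± 0.984 to 0.756 ± 0.396 CPM (adjusted p = 2.67e-05). Trim34a fell by 1.84 on the log2 scale (SE 0.11, adjusted p = 2.79e-06), while its neighbour Trim34b rose from 0.0634 ± 0.0877 to 2.07 ± 0.136 CPM (adjusted p = 0.000254).

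Because reads of near copies can be split between them, sums were tested in the same fit. Trim30a, Trim30b and Trim30d together fell by 0.78 on the log2 scale (SE 0.13, adjusted p = 0.00352), and Trim34a and Trim34b together fell by 1.51 (SE 0.10, adjusted p = 1.08e-05). Trim12a and Trim12c together had 53.1 ± 4.77 CPM in ROBO4_KO and 43.0 ± 5.08 CPM in VLDLR_KO, a difference that was not called (adjusted p = 0.0881). The direction of single Trim genes is therefore uncertain, and that of the Trim30 and Trim34 sums was lower in VLDLR_KO.

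On chromosome 1, Ifi204 had 141, 128, 95.6, 97.3 and 94.3 CPM in ROBO4_KO replicates 1 to 5 and 34.9, 43.6, 36.1, 33.1 and 32.8 CPM in VLDLR_KO. The groups were far apart in both code forms (log2 fold change -1.61, SE 0.09, adjusted p = 3.09e-06). Ifi209 differed by -2.37 (adjusted p = 1.59e-05), Ifi211 by -1.85 (adjusted p = 9.38e-05) and Ifi207 by -0.78 (adjusted p = 0.00469), all lower in VLDLR_KO. No sum with similar genes was made for these genes or for Ifi204. Ifi202b went the other way: it was at 0 in all 5 ROBO4_KO and all 5 WT libraries and at 11.8, 7.96, 11.7, 16.8 and 15.7 CPM in VLDLR_KO. Against a floor of 3 counts per library this was at least 80.8-fold higher. With LOC100044068, a near copy on an unplaced scaffold, the sum was 78.5 ± 9.08 CPM in VLDLR_KO and 0.0103 CPM in ROBO4_KO.

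**Figure D2:**
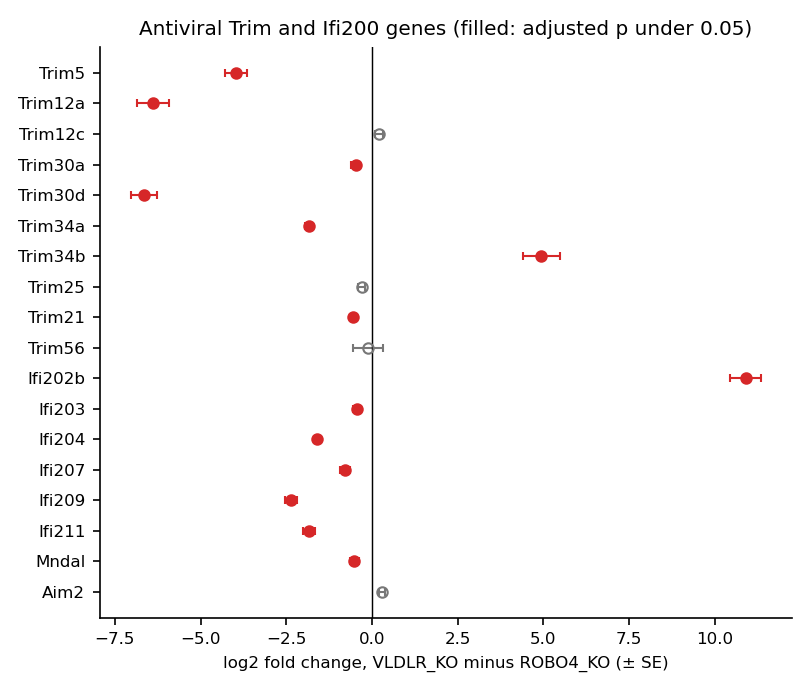
Log2 fold change, VLDLR_KO minus ROBO4_KO, with its SE for the 18 tested Trim and Ifi200 genes; filled points have an adjusted p under 0.05. Most points lie left of 0, with Trim30d and Trim12a lowest, and Trim34b and Ifi202b lie to the right; the fitted value of Ifi202b depends on the prior count, since ROBO4_KO was at 0.

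Of 30 tested genes of the general interferon response, 3 were called higher and 2 lower (16.7%, median 0.22, and -0.01 without VLDLR_KO replicates 1 and 2). The higher count was 1 without ROBO4_KO replicate 1, 2, 3 or 5 or VLDLR_KO replicate 5, and 5 without VLDLR_KO replicate 4. Oas1g, a sensor of double-stranded RNA, rose from 6.96 ± 1.62 to 13.8 ± 3.18 CPM (adjusted p = 0.00133), and with its near copy Oas1a the sum rose by 0.60 (SE 0.12, adjusted p = 0.0117). Rsad2, the antiviral enzyme viperin, fell by 0.78 on the log2 scale (SE 0.13, adjusted p = 0.00327), and Oasl2 by 0.50 (SE 0.09, adjusted p = 0.00569).

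Several genes were present in one knockout and at or near 0 in the other. Npy (chr6:49822710-49829507, plus strand), the gene of neuropeptide Y, had 170, 168, 126, 131 and 127 CPM in ROBO4_KO replicates 1 to 5. VLDLR_KO had a single count, in replicate 4, and 0 in the other 4 libraries. The ratio of ROBO4_KO to VLDLR_KO was 13100, with an exact 95% counting interval of 2360 to 519000, and WT had 91.7 to 271 CPM. C77080 (chr4:129219578-129265011) had 323, 278, 191, 167 and 139 CPM in ROBO4_KO and 0.763, 0.772, 0.847, 0.725 and 0.584 CPM in VLDLR_KO (log2 fold change -8.16, SE 0.19, adjusted p = 1.36e-09).

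Further genes fell by varying amounts. Rab6b, a small GTPase of Golgi transport, had 15.4 to 34.7 CPM in ROBO4_KO and at most 0.272 CPM in VLDLR_KO (adjusted p = 1.07e-06). Adcy2, an adenylyl cyclase, had at least 0.871 CPM in ROBO4_KO and at most 0.381 CPM in VLDLR_KO (adjusted p = 1.74e-05). Fblim1 encodes migfilin, an adaptor that links filamin to cell-matrix junctions, and had 217 ± 42.7 CPM in ROBO4_KO and 34.9 ± 8.18 CPM in VLDLR_KO (log2 fold change -2.64, SE 0.10, adjusted p = 1.62e-07). Padi2, an enzyme that converts arginine to citrulline in proteins, fell by 1.19 on the log2 scale (SE 0.08, adjusted p = 1e-05), with overlapping groups that separated within each code form. Without the code form in the model Padi2 was not called (adjusted p = 0.0933).

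Zinc finger genes on chromosome 4 also differed. Zfp984 fell from 46.0 ± 6.80 to 1.85 ± 1.06 CPM, and the sum of Zfp984, Zfp985, Zfp990, Zfp991 and Zfp992, which resemble one another, fell by 1.75 (SE 0.11, adjusted p = 6.17e-06). Zfp429 on chromosome 13 fell from 9.42 ± 0.577 to 0.418 ± 0.143 CPM (adjusted p = 8.2e-07).

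Genes that were low or absent in ROBO4_KO formed the other side. Gdpd3 (chr7:126766414-126777645), a lysophospholipase D, had 0.426, 0.723, 0.445, 0.469 and 0.359 CPM in ROBO4_KO and 132, 201, 56.8, 70.4 and 39.3 CPM in VLDLR_KO. All 5 VLDLR_KO libraries were far above the others (log2 fold change 7.57, SE 0.30, adjusted p = 1.62e-07), and WT was at 0.424 CPM. Angptl7 (chr4:148495181-148500462), a secreted angiopoietin-like factor, rose from 0.0845 ± 0.0788 to 9.96 ± 4.53 CPM (adjusted p = 1.09e-06). Plekha7, an adherens junction protein, rose by 5.57 on the log2 scale from 0.241 ± 0.103 CPM (adjusted p = 3.33e-07).

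Of the genes well expressed in both groups, Apobec1 (chr6:122577792-122603027), the enzyme that edits C to U in apolipoprotein B mRNA, rose in every library. ROBO4_KO replicates 1 to 5 had 408, 403, 371, 344 and 328 CPM and VLDLR_KO 1320, 1320, 932, 1030 and 952 CPM. The difference was close in both code forms, 1.70 with the digit before B and 1.48 after it (pooled 1.57, SE 0.08, adjusted p = 1.44e-06). Cxcl14 (chr13:56288643-56296794), a chemokine made constitutively by many tissues, had 24.3, 22.3, 11.8, 9.07 and 11.7 CPM in ROBO4_KO and 171, 178, 127, 121 and 130 CPM in VLDLR_KO (log2 fold change 3.27, SE 0.14, adjusted p = 3.2e-07). Zdhhc18, a palmitoyltransferase, rose by 1.17 (SE 0.07, adjusted p = 3.4e-06) and Sfi1, a centrosomal protein that binds centrin, by 1.47 (SE 0.09, adjusted p = 3.73e-06). The non-classical MHC class I genes H2-T10 (log2 fold change 3.27, adjusted p = 7.76e-07) and H2-T24 (1.96, adjusted p = 3.83e-05) rose as well. No sum with similar genes was made for either.

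**Figure D3:**
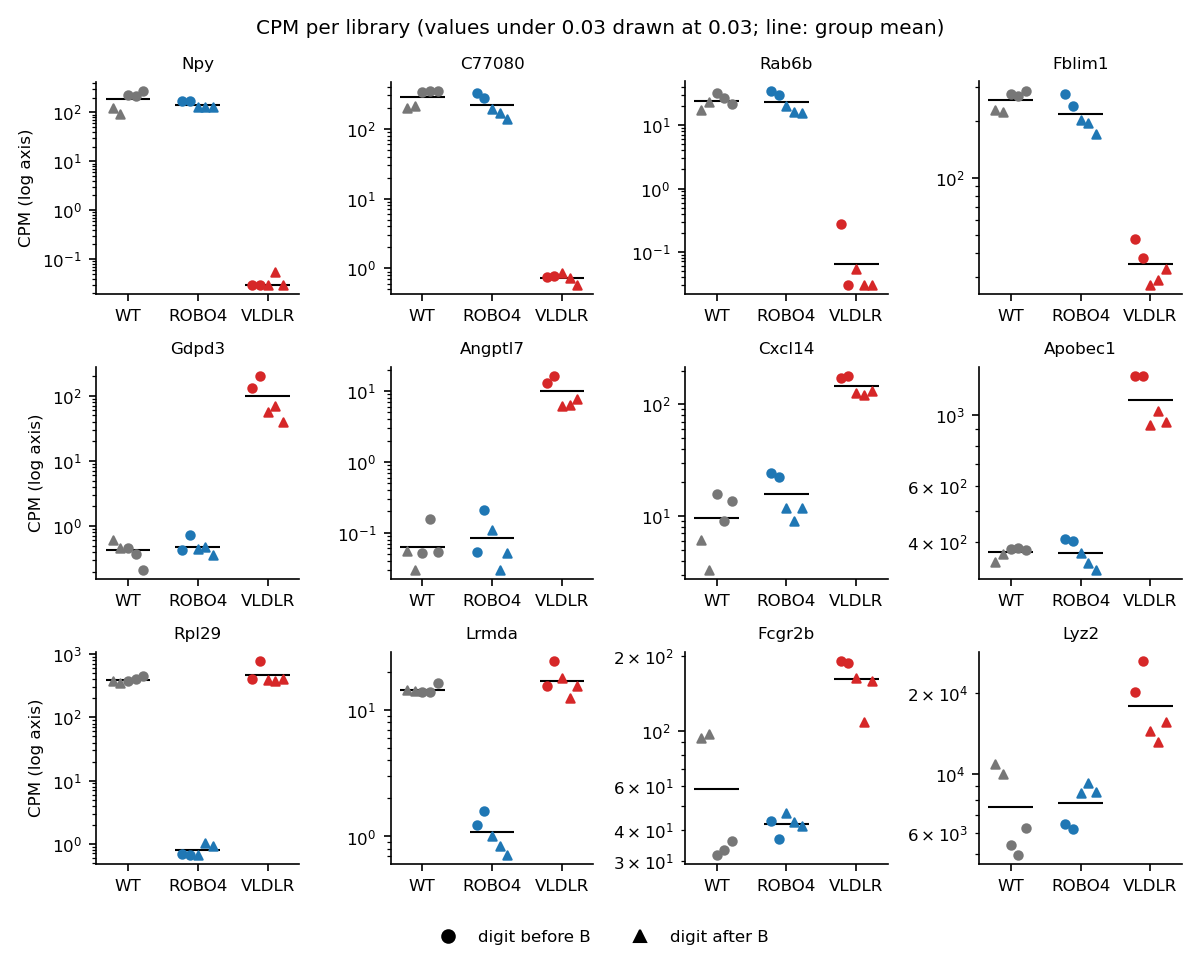
CPM on a log axis for 12 genes in WT (grey), ROBO4_KO (blue) and VLDLR_KO (red). Each point is 1 library (circles, digit before B; triangles, after), the line is the group mean and values under 0.03 CPM are drawn at 0.03. For Npy, C77080, Rab6b and Fblim1 the VLDLR_KO libraries lie below all others, for Gdpd3, Angptl7, Cxcl14 and Apobec1 above all others, and for Rpl29 and Lrmda the ROBO4_KO libraries are the low ones.

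For Rpl29 and Lrmda it was ROBO4_KO that stood apart from both other genotypes. Rpl29, the gene of a large ribosomal subunit protein, had 0.693, 0.671, 0.667, 1.04 and 0.922 CPM in ROBO4_KO, 404, 778, 386, 378 and 410 CPM in VLDLR_KO, and 354 to 457 CPM in WT. The annotated copy Gm8210 on chromosome 1 had the opposite pattern, with 326, 339, 316, 332 and 329 CPM in ROBO4_KO and at most 0.212 CPM in VLDLR_KO. Their sum did not pass the test (329 ± 8.43 against 471 ± 172 CPM, adjusted p = 0.104), so a difference in total Rpl29 message was not shown. Lrmda, a leucine-rich repeat gene on chromosome 14 known from pigment cells, had 1.08 ± 0.350 CPM in ROBO4_KO, 17.1 ± 4.46 in VLDLR_KO and 14.6 ± 0.993 in WT (log2 fold change 4.01, SE 0.20, adjusted p = 1.07e-06).

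For the further near copies given here, single members differed while the sums were not called. Eno1b was at 0 in all ROBO4_KO and WT libraries and at 218, 334, 280, 262 and 276 CPM in VLDLR_KO. This was at least 1730-fold higher, while Eno1, the gene of the glycolytic enzyme alpha-enolase, fell from 469 ± 45.5 to 315 ± 43.0 CPM (adjusted p = 0.00535). Their sum was not called (log2 fold change 0.33, SE 0.11, adjusted p = 0.0883). Rps6 fell by 2.50 on the log2 scale (SE 0.15, adjusted p = 3.17e-06), but with LOC105244208, which took most of the reads, the sum was 753 ± 41.1 and 748 ± 135 CPM (adjusted p = 0.958). Rnaset2b, one of a pair of lysosomal ribonuclease genes, fell from 48.8 ± 2.12 to 0.313 ± 0.372 CPM (adjusted p = 1e-05), and the sum with Rnaset2a differed by -0.07 (SE 0.16, adjusted p = 0.817). The sums of Tdg and Tdg-ps (0.10, adjusted p = 0.596) and of Amd1 and Amd2 (-0.02, adjusted p = 0.959) were not called either, although Tdg-ps and Amd2 alone rose by 4.71 and 3.70.

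**Figure D4:**
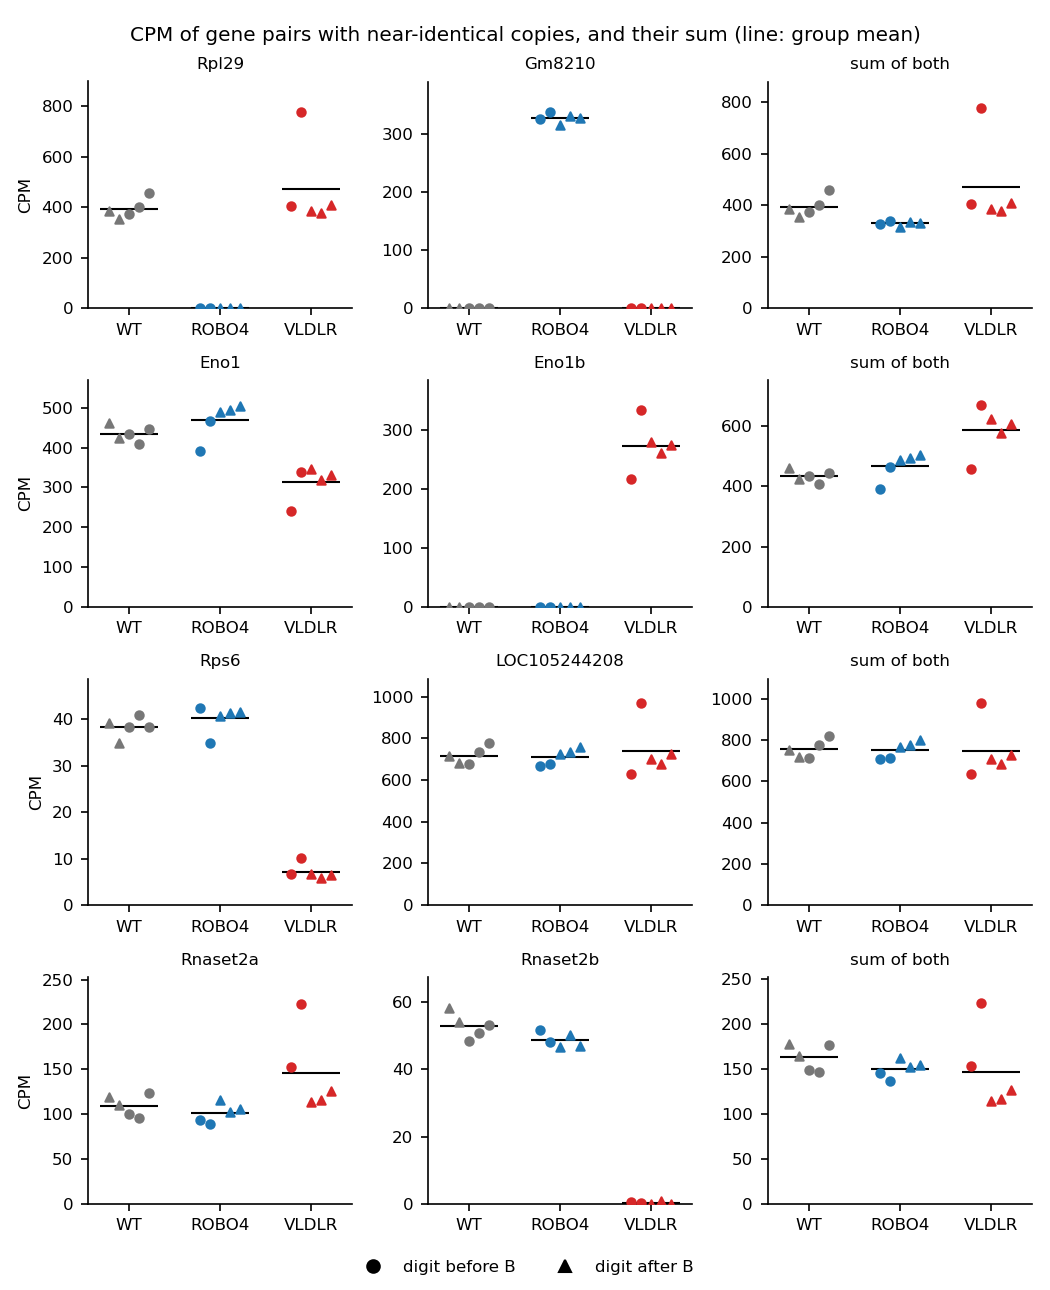
CPM, on linear axes from 0, of 4 gene pairs (left and middle columns) and of their sums (right column) in WT (grey), ROBO4_KO (blue) and VLDLR_KO (red). Points are libraries (circles, digit before B; triangles, after) and lines are group means. Single members differ by up to the whole range, while none of the 4 sums differed past the threshold, with adjusted p from 0.0883 to 0.958.

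Macrophage identity genes differed in part. Of 24 tested, 5 were called higher and 1 lower (25%, median 0.21). The median was 0.29 with the digit before B and -0.07 after it, where 16 of the 24 lay below 0. Without VLDLR_KO replicate 2 it was 0.05, and without replicates 1 and 2 it was -0.07, with 3 called higher and 2 lower. The higher count was 3 without ROBO4_KO replicate 1 or 4 or VLDLR_KO replicate 3, and the lower count 4 without VLDLR_KO replicate 2 and 2 without VLDLR_KO replicate 4. Lyz2, the lysozyme of macrophages and granulocytes, had 6490, 6190, 8460, 9260 and 8560 CPM in ROBO4_KO and 20300, 26400, 14400, 13200 and 15600 CPM in VLDLR_KO. The groups did not overlap (log2 fold change 1.18, SE 0.21, adjusted p = 0.00537), and the difference was larger with the digit before B (1.88) than after it (0.72), a dependence that was itself called (adjusted p = 0.0343). Adgre1, which encodes the F4/80 antigen, fell from 1145 ± 19.8 to 841 ± 123 CPM (adjusted p = 0.0129). Cd86, a costimulatory ligand, rose by 1.12 (SE 0.21, adjusted p = 0.00647), and Csf1r, the M-CSF receptor, differed by 0.27 (SE 0.14, adjusted p = 0.252). Cx3cr1, the fractalkine receptor, rose by 2.22 (adjusted p = 0.0195), a call that was lost without ROBO4_KO replicate 1 (0.0545) or replicate 4 (0.0529).

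Receptors for antibody moved apart from each other. Fcgr2b, the inhibitory Fc gamma receptor, had 43.4, 36.8, 46.6, 42.9 and 41.6 CPM in ROBO4_KO and 190, 187, 163, 108 and 158 CPM in VLDLR_KO (log2 fold change 1.92, SE 0.14, adjusted p = 1.82e-05). Every VLDLR_KO library lay above every ROBO4_KO library. Of the 8 tested Fc receptor genes, 1 was called higher and 4 lower (62.5%), the lower ones being the activating receptors Fcgr3 (-0.55, adjusted p = 0.0227) and Fcgr4 (-1.04, adjusted p = 0.0427), their signalling chain Fcer1g (-0.69, adjusted p = 0.0162) and the neonatal receptor Fcgrt (-0.95, adjusted p = 0.0462). These 4 calls were not stable: none was made without VLDLR_KO replicate 5 (adjusted p = 0.0521 for Fcer1g), 1 without ROBO4_KO replicate 4, 2 without ROBO4_KO replicate 3 or VLDLR_KO replicate 1 or 3, and at most 3 without any other library.

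Complement, adhesion and antigen presentation genes gave smaller sets of calls. Itgax, the complement receptor chain CD11c, had 432 ± 359 CPM in ROBO4_KO and 1400 ± 630 CPM in VLDLR_KO (log2 fold change 2.10, SE 0.36, adjusted p = 0.00405), with groups that overlapped across but not within code forms. It belongs to the 17 tested complement genes, of which 3 were called higher and 1 lower (23.5%, median 0.36), and 2 and 1 without VLDLR_KO replicates 1 and 2. The higher count was 1 without ROBO4_KO replicate 2, and the lower count 2 without VLDLR_KO replicate 2 or 4. Of the 7 tested dendritic cell markers 2 were called higher (28.6%, beside 10.3% of all genes), Itgax and Xcr1. Xcr1 lost its call without ROBO4_KO replicate 1, 2, 4 or 5 or any 1 VLDLR_KO replicate (adjusted p at most 0.0922). The list had 1 called higher without ROBO4_KO replicate 1, 2, 4 or 5 or VLDLR_KO replicate 1, 3 or 5. In it 1 was called lower without ROBO4_KO replicate 1 or 2, or VLDLR_KO replicate 1, 2 or both. The summed level of that list was 370 to 1210 CPM in ROBO4_KO and 1316 to 2567 CPM in VLDLR_KO. Most of it was Itgax, while Siglech was at 0. The part of such cells in the Itgax difference was not tested. Among MHC class II genes 2 of 8 were called lower (25%, median -0.68), Cd74, the invariant chain (-0.78, SE 0.17, adjusted p = 0.0162), and H2-Eb1 (-0.81, SE 0.22, adjusted p = 0.0392). The count was 4 without VLDLR_KO replicate 2, 3 without ROBO4_KO replicate 5 and 1 without any of 7 other libraries. Neither was called without VLDLR_KO replicates 1 and 2 (0.072 for Cd74), and H2-Eb1 was lost without any of 8 single libraries, its adjusted p reaching 0.104. MHC class I and peptide loading genes had 1 call of 19 (5.26%).

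Chemoattractant receptors had 4 calls higher and 2 lower among 16 (37.5%, median 0.26). The higher count was 2 without ROBO4_KO replicate 4, and the lower count 1 without 8 of the single libraries. C3ar1, the C3a receptor, fell by 0.45 (SE 0.09, adjusted p = 0.0101), and Cxcr2 rose by 2.40 from a low level (adjusted p = 0.00289). Of 14 tested chemokines 14.3% were called, beside 10.3% of all genes. In this list 1 was higher, Cxcl14, and 1 lower, Ccl9 (-0.82, SE 0.19, adjusted p = 0.0237). The call of Ccl9 was lost without ROBO4_KO replicates 1 or 2 or VLDLR_KO replicates 1 or 3, with an adjusted p of at most 0.0549.

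Genes of alternative activation had 5 calls higher and none lower among 13 (38.5%, median 0.57), where 4 or 5 were called higher with any 1 library left out. The median was less steady, at 0.11 without VLDLR_KO replicate 2, 0.17 without ROBO4_KO replicate 1, 0.38 to 0.70 without any other library and 0.18 without VLDLR_KO replicates 1 and 2. They include F13a1, coagulation factor XIII A (3.82, SE 0.56, adjusted p = 0.00161), Mgl2, a C-type lectin (2.96, SE 0.48, adjusted p = 0.00299), the interleukin 4 receptor gene Il4ra (0.65, SE 0.12, adjusted p = 0.00676) and Cd163, the haemoglobin scavenger receptor (1.57, SE 0.34, adjusted p = 0.0147). F13a1, Mgl2 and Cd163 were low, with means of 10.2, 1.99 and 3.76 CPM in VLDLR_KO. F13a1, Il4ra and Cd163 were not called without the code form in the model (adjusted p from 0.0618 to 0.205).

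Inflammatory mediators had 4 calls higher and none lower among 16 (25%, median 0.43), and 3 to 6 higher with 1 library left out. Il1b was higher within each code form, by 1.53 before and 1.54 after (adjusted p = 0.00241 over both), and its level was 1.76 and 2.74 CPM in ROBO4_KO replicates 1 and 2, 0.156 to 0.256 CPM in replicates 3 to 5, 7.03 and 6.06 CPM in VLDLR_KO replicates 1 and 2 and 0.531 to 0.613 CPM in replicates 3 to 5. Nfkbia, the inhibitor of NF-kB, rose by 0.88 (SE 0.17, adjusted p = 0.00741) and Socs3, the feedback inhibitor of cytokine signalling, by 1.46 (SE 0.28, adjusted p = 0.00903). All 3 lost their calls when the code form was left out of the model, or when the WT libraries joined the fit, and WT replicates 1 and 2 (digit after B) reached 32.7 CPM of Il1b beside 0.845 to 1.81 CPM in WT replicates 3 to 5. Of 23 immediate-early genes 4 were called higher (17.4%), among them Ier2 (0.86, SE 0.15, adjusted p = 0.004), which also lost its call when the WT libraries joined the fit, and 1 or 2 were called without any of 7 single libraries. Toll-like receptors and adaptors had 2 calls higher of 20 (10%, near the 10.3% of all genes), and none without ROBO4_KO replicate 2 or VLDLR_KO replicate 5.

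Lipoprotein receptors, the family of VLDLR itself, had no call among 16 tested genes by edgeR, and Lrpap1, the chaperone of the family, had the lowest p (0.36, SE 0.11, adjusted p = 0.0605). DESeq2 called Lrpap1, as did the fits without ROBO4_KO replicate 1 or VLDLR_KO replicate 2 and the fit without VLDLR_KO replicates 1 and 2, which called 2 genes of the list higher. Among 25 genes of lipid uptake, storage and efflux 2 were called higher and 2 lower (16%), with 1 higher without any of 7 single libraries. Lpl, the lipoprotein lipase that macrophages secrete, had 5090, 4390, 9770, 8300 and 7630 CPM in ROBO4_KO and 1160, 1080, 3940, 6310 and 3200 CPM in VLDLR_KO. Within each code form the VLDLR_KO libraries were the lower ones (-2.09 before, -0.94 after; pooled -1.39, SE 0.25, adjusted p = 0.00587). Pparg, the nuclear receptor of lipid storage, fell by 0.73 (SE 0.11, adjusted p = 0.00253), and Dgat2, which makes triacylglycerol, rose by 4.13 from 0.147 ± 0.0665 CPM (adjusted p = 7.55e-05). Pparg and Lpl also count among the 3 tested adipocyte markers, with Fabp4 as the remaining one, which differed by 0.36 (adjusted p = 0.22), and the summed level of that list was 4755 to 10170 CPM in ROBO4_KO and 1639 to 6666 CPM in VLDLR_KO. Whether other cells had a part in this was not tested.

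Cholesterol synthesis genes had no call in the fit over both forms (0 of 27, median -0.19, with 7 genes above 0 and 20 below). Without VLDLR_KO replicates 1 and 2, 3 were called higher and none lower (median 0.12). In 11 of the 27 the difference depended on the code form (beside 1.17% of all genes). With the digit before B, 18 of the 27 were called lower in VLDLR_KO and none higher (median -0.81, beside 18.3% of all genes called and 8.84% called lower). With the digit after B, 1 was called higher and none lower (median 0.13, beside 7.35% of all genes, 3.43% higher and 3.91% lower). Sqle, the squalene epoxidase, had 70.5 and 75.3 CPM in ROBO4_KO replicates 1 and 2 against 32.9 and 28.3 CPM in VLDLR_KO, and 58.3, 62.9 and 63.7 CPM in ROBO4_KO replicates 3 to 5 against 111, 88.9 and 101 CPM in VLDLR_KO. It was lower in VLDLR_KO in the first form and higher in the second (-1.25 and 0.70; interaction adjusted p = 0.00367).

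Cyp51, the lanosterol demethylase, differed by -1.72 with the digit before B and by -0.23 with it after B (interaction adjusted p = 0.0318). The number of pathway genes with such a call was 1 without ROBO4_KO replicate 4 or VLDLR_KO replicate 2, 2 without ROBO4_KO replicate 2, 3 or 5 or VLDLR_KO replicate 5, 3 without VLDLR_KO replicate 3, 4 without ROBO4_KO replicate 1, 20 without VLDLR_KO replicate 1 and 19 by DESeq2. VLDLR_KO replicates 1 and 2, the low libraries here, were those that stood apart on the first principal component, and replicate 2 also had a summed level of cytosolic ribosomal protein genes of 41520 CPM against 21140 to 23880 CPM in the other 9 libraries. The part of this in the result was not tested.

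**Figure D5:**
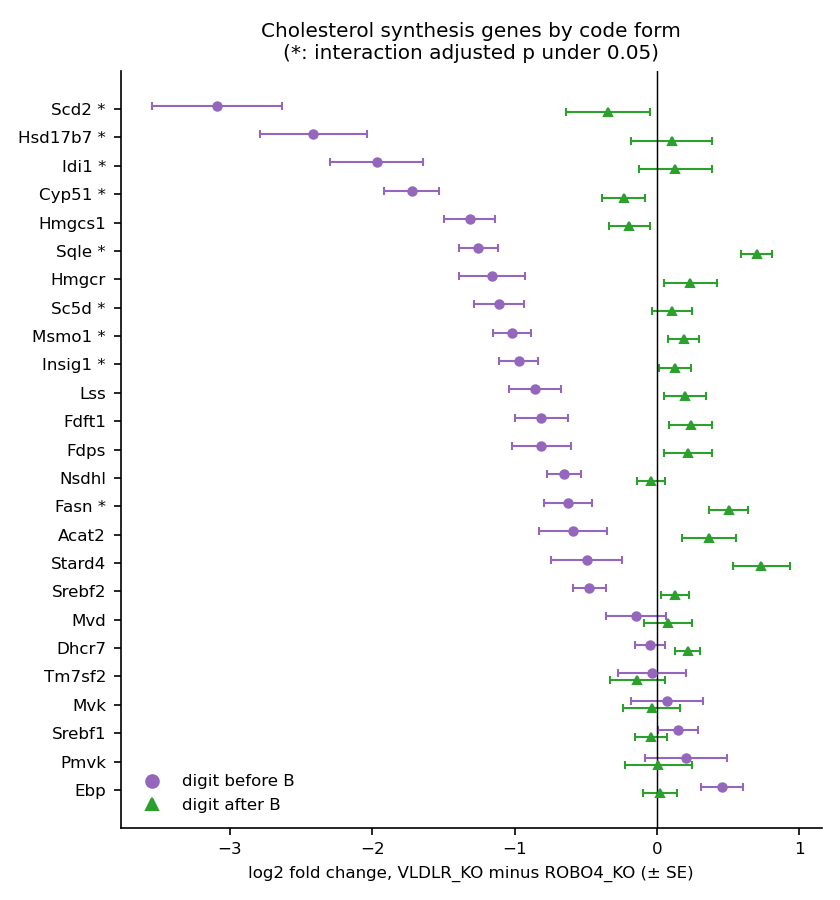
Log2 fold change, VLDLR_KO minus ROBO4_KO, with its SE for 25 of the 27 cholesterol synthesis genes, within the libraries with the digit before B (purple circles) and after B (green triangles). Asterisks mark an interaction adjusted p under 0.05. Over all 27 genes the median was -0.81 in the first form and 0.13 in the second, and for Sqle the 2 lie on opposite sides of 0.

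Across all genes the difference between the knockouts depended on the code form in 139 (1.17%). That count was 3 without ROBO4_KO replicate 2, 7 without ROBO4_KO replicate 4, 20 to 33 without ROBO4_KO replicate 3 or 5 or VLDLR_KO replicate 2, 3 or 5, and 4613 without VLDLR_KO replicate 1. Cxcr4, the receptor of CXCL12, had 213 and 176 CPM in ROBO4_KO replicates 1 and 2 against 479 and 453 CPM in VLDLR_KO, and 61.8 to 77.1 CPM in ROBO4_KO replicates 3 to 5 against 38.2, 39.1 and 42.1 CPM in VLDLR_KO. It was thus higher in VLDLR_KO in one form (1.26, adjusted p = 0.000596) and lower in the other (-0.79, adjusted p = 0.00292; interaction adjusted p = 0.00367). Kif3a, a subunit of the kinesin motor of cilia (0.96 and -0.49; interaction adjusted p = 0.00806), and Clk1, a kinase of SR splicing factors (0.64 and -0.72; 0.00904), had opposite signs in the same way. Neurl3, a ubiquitin ligase, differed by 0.20 and -1.34 (0.00806), and Arl5c, an ARF-like GTPase, by 2.49 and -0.08 (0.0085).

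Lysosomal genes moved in both directions. Of 37 tested, 4 were called higher and 4 lower (21.6%, median 0.05). Ctsh, the aminopeptidase cathepsin H, had 185, 174, 327, 280 and 246 CPM in ROBO4_KO and 61.5, 68.9, 111, 122 and 111 CPM in VLDLR_KO (log2 fold change -1.37, SE 0.10, adjusted p = 1.14e-05). All VLDLR_KO libraries were lower. Asah1, acid ceramidase, fell by 0.88 (SE 0.09, adjusted p = 0.000159) and Glb1, lysosomal beta-galactosidase, by 0.96 (SE 0.13, adjusted p = 0.00102). Ctsl, Ctsc and Gaa were called higher, but each call was lost without several single libraries, and without VLDLR_KO replicates 1 and 2 only 1 lysosomal gene was called higher. Rab GTPases had 2 calls higher and 4 lower of 39 (15.4%, beside 10.3% of all genes). With 1 library left out the counts were 0 to 2 and 2 to 4, the lowest without ROBO4_KO replicate 2.

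RNA-binding proteins of splicing and circular RNA, the family of QKI, had 1 call higher and 3 lower among 33 (median 0.11). This share of 12.1% was near the 10.3% of all genes. Without VLDLR_KO replicate 2, 3 were called higher, and without ROBO4_KO replicate 1, 1 was called lower. Beside Qk, Khsrp, a splicing and decay factor, fell by 0.50 (SE 0.09, adjusted p = 0.00597) and Mbnl1, the splicing regulator muscleblind, by 0.45 (SE 0.10, adjusted p = 0.0193), the latter not called without ROBO4_KO replicate 1 or 2 (0.059 at most). Srsf5, an SR protein, had 106 ± 12.1 CPM in ROBO4_KO and 164 ± 8.52 CPM in VLDLR_KO (log2 fold change 0.62, SE 0.09, adjusted p = 0.00156). Adar, the RNA editing enzyme, differed by 0.11 (adjusted p = 0.369).

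Slit and Robo signalling genes had 2 calls higher and 3 lower among 21 (23.8%, median -0.19, and 0.04 without VLDLR_KO replicates 1 and 2), with 1 higher without ROBO4_KO replicate 1, 2 or 4 or VLDLR_KO replicate 1 or 5. Neo1, the netrin and RGM receptor neogenin, had 5.87 ± 2.50 CPM in ROBO4_KO and 18.7 ± 6.89 CPM in VLDLR_KO (log2 fold change 1.71, SE 0.34, adjusted p = 0.0102). Nck2, an adaptor between guidance receptors and actin, fell by 1.31 (SE 0.14, adjusted p = 0.000159), Unc5a, a netrin receptor, by 2.60 (SE 0.39, adjusted p = 0.00206) and Slit1 by 2.05 (SE 0.33, adjusted p = 0.00283), the latter pair from levels of 1.26 ± 0.438 and 2.36 ± 1.54 CPM in ROBO4_KO. Robo3 was at 0 in all 10 libraries. Of 31 angiogenic and antiangiogenic factors 2 were called higher and 1 lower (9.68%, near the 10.3% of all genes). The lower one was Col18a1, the collagen from which endostatin is cleaved (15.4 ± 3.73 to 2.55 ± 1.11 CPM, adjusted p = 0.000418). The lower count was 3 without VLDLR_KO replicate 2 or 4 or without replicates 1 and 2, and 2 without replicate 3, and the higher count was 1 without ROBO4_KO replicate 2, 3, 4 or 5 or VLDLR_KO replicate 2, 3 or 5. Wnt and beta-catenin genes had 1 call lower of 26 (3.85%), which became 3 higher and none lower without VLDLR_KO replicate 2, 2 lower without replicate 4, and 7 higher and none lower without replicates 1 and 2. With ROBO4_KO replicate 1, 2, 3 or 4 or VLDLR_KO replicate 1, 3 or 5 left out the list had no call.

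In metabolism, glycolysis and hypoxia genes had 5 calls higher and 4 lower of 32 (28.1%, median 0.04). The higher count was 1 without ROBO4_KO replicate 4 or VLDLR_KO replicate 5, 3 without ROBO4_KO replicate 2, 3 or 5 or VLDLR_KO replicate 1 or 3, and 8 without VLDLR_KO replicate 2. Aldoc, an aldolase, fell by 1.03 on the log2 scale (SE 0.14, adjusted p = 0.000985) and Pdk1, a pyruvate dehydrogenase kinase, by 0.68 (SE 0.15, adjusted p = 0.0146). Eno1 is among the lower calls and is subject to the copy sum given above. Oxidative phosphorylation genes had 1 call of 37 (2.7%), although 33 of the 37 lay above 0 (median 0.28, and 0.07 without VLDLR_KO replicates 1 and 2). Antioxidant enzymes had 6 calls higher and 1 lower of 25 (28%, median 0.04), with 3 higher without ROBO4_KO replicate 2, 4 or 5. Mgst1, a microsomal glutathione transferase, rose by 1.27 (SE 0.20, adjusted p = 0.00263) and Gstm1 by 0.54 (SE 0.11, adjusted p = 0.0106), while Gsr, glutathione reductase, fell by 0.70 (SE 0.10, adjusted p = 0.0018).

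Cytosolic ribosomal proteins had 1 call of 50 (2%; 5 without VLDLR_KO replicate 2), Rps6 as above, and a median of 0.17, which was -0.08 without VLDLR_KO replicates 1 and 2. Osteoclast genes had no call among 16 by edgeR (lowest adjusted p 0.0814, Tcirg1, the osteoclast proton pump subunit, which DESeq2 called, as did the fit without VLDLR_KO replicate 3), and 2 were called higher without VLDLR_KO replicates 1 and 2. Cell cycle genes had 1 call lower of 33 (3.03%, median -0.23). Without ROBO4_KO replicate 3 the list had 4 called lower (median -0.47), without VLDLR_KO replicate 3 again 1, and without any of the other 8 libraries none. Genes of endoplasmic reticulum stress had 1 of 24 (4.17%) and macrophage lineage factors 2 of 21 (9.52%), near or under the share over all genes, and without VLDLR_KO replicates 1 and 2 these lists had 6 and 5 called higher. Neither list had a call without VLDLR_KO replicate 5.

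Markers of other cells varied between libraries, and the calls in these lists stand beside 10.3% of all genes called. Extracellular matrix and fibroblast genes were all below 0 in the fit over both forms (22 of 22, median -1.09) with no call by edgeR, but the direction differed between forms. With the digit before B the median was -3.54 and 15 of the 22 were called lower, and with the digit after B it was 0.29, with 16 above 0 and none called. Their summed level was 908 CPM in ROBO4_KO replicate 2, 76.3 to 164 CPM in the other ROBO4_KO libraries and 22.4 to 377 CPM in VLDLR_KO. Without ROBO4_KO replicate 2 the median was -0.12, and without VLDLR_KO replicates 1 and 2 it was 0.28. The osteoblast and stroma list had 1 call higher and 1 lower of 7 (28.6%). Its summed level was 1840 to 2677 CPM in ROBO4_KO and 2644 to 4102 CPM in VLDLR_KO. The higher call was Spp1 (adjusted p = 0.0413), which was lost without any of several single libraries. The lower one was Nes, the intermediate filament nestin, which fell from 66.0 ± 12.1 to 19.4 ± 9.18 CPM (adjusted p = 0.00236). ROBO4_KO replicate 2 had 79.4 CPM of Nes and the other ROBO4_KO libraries 47.4 to 70.9 CPM. Eng, endoglin, fell by 0.63 (SE 0.14, adjusted p = 0.0188). It was the only call among the 7 tested genes of the endothelial list (14.3%), of which 3 lay above 0 and 4 below. Neutrophil markers had 1 call higher, Cxcr2, and 2 lower, S100a9 and Ngp, of 8 (37.5%). S100a9 and Ngp were at 0 in replicates 1 and 2 of both knockouts and at most 4.90 CPM in the other knockout libraries. The summed level of the list was 191 and 176.5 CPM in VLDLR_KO replicates 1 and 2 and 52.6 to 84.2 CPM in the other 8 libraries, most of it Csf3r, the G-CSF receptor (188 and 174 CPM in those 2 libraries). The median was 1.44 with the digit before B and -1.37 after it. The B cell list had 1 of 2 called (Cd22, 0.95, adjusted p = 0.00474), the T and NK cell list 1 of 4 (Klrb1c), the mast cell list 1 of 2 (Kit, not called without VLDLR_KO replicates 1 and 2, 0.059) and the erythroid and megakaryocyte list 0 of 2.

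The share of genes called varied between chromosomes. Chromosome 6 had the highest share (96 of 565 tested genes, 17%), followed by chromosome 4 (120 of 737, 16.3%) and chromosome 1 (100 of 689, 14.5%), while chromosomes 16 (4.66%) and 14 (4.77%) had the lowest among the autosomes. Windows of 10 Mb are given for genes described above, so their counts are a description. The window at 140 to 150 Mb of chromosome 4 had 24 of 72 genes called (33.3%, beside 10.3% of all genes). It holds Fblim1, Angptl7 and the zinc finger genes. The window at 170 to 180 Mb of chromosome 1 had 37 of 83 (44.6%) and holds the Ifi200 genes. That at 100 to 110 Mb of chromosome 7 had 17 of 74 (23%) and holds the Trim genes. Unplaced scaffolds had 8 of 30 genes called, all of them at least 4-fold, H2-T10 among them.

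On chromosome 6 the calls of lowest p were Apobec1, Npy, Ica1, a gene of secretory granules (2.36, SE 0.20, adjusted p = 3.15e-05), and the killer cell lectin-like receptors Klra17 and Klra3. Klra17 rose from 0.171 ± 0.0997 to 3.46 ± 0.790 CPM, whereas Klra3 was at 0 in all VLDLR_KO libraries and at 4.27 ± 0.732 CPM in ROBO4_KO, at least 25.8-fold lower. Klrb1c, the NK1.1 antigen, was at 0 in VLDLR_KO and at 0.711 ± 0.235 CPM in ROBO4_KO, at least 4.3-fold lower. Klra genes are near copies of one another, and the sum of Klra1, Klra2, Klra3, Klra4 and Klra17 rose by 1.30 (SE 0.15, adjusted p = 0.000395).

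Within 10 Mb of Vldlr on chromosome 19, 11 of 75 genes were called (14.7%), and within 10 Mb of Robo4 on chromosome 9, 6 of 85 (7.06%), none of these 6 with at least 4-fold. Near Qk, on chromosome 17, 16 of 70 were called (22.9%), Rnaset2b among them, and near Slc17a5, on chromosome 9, 10 of 67 (14.9%). The shares over the whole of chromosomes 19, 9 and 17 were 8.49%, 12% and 10.4%, and over all genes 10.3%.

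Each knockout's own difference from WT came from a fit over all 15 libraries with the code form as a covariate. These comparisons share libraries with the one between the knockouts, so their values are given side by side and are not independent. VLDLR_KO differed from WT in 2015 of 12198 genes (16.5%) and ROBO4_KO in 81 (0.664%). At an unadjusted p under 0.05 the latter count was 760 (6.23%). WT replicates 1 and 2, the WT libraries with the digit after B, had 1276 and 1516 CPM of inflammatory mediators in sum. WT replicates 3 to 5 had 373 to 437 CPM, ROBO4_KO 335 to 427 and VLDLR_KO 458 to 521. The part of this in the differences from WT was not tested. Of the genes described above, Apobec1 differed from WT by 1.62 in VLDLR_KO and 0.04 in ROBO4_KO, Fblim1 by -2.81 and -0.17, Gdpd3 by 7.96 and 0.41, and Qk by -0.55 and 0.03. Rpl29 differed from WT by 0.30 in VLDLR_KO and -8.87 in ROBO4_KO, and Lrmda by 0.28 and -3.71. Rab4a, a GTPase of recycling endosomes, had fitted differences from WT of 0.71 in VLDLR_KO and 1.51 in ROBO4_KO. It fell by 0.79 (SE 0.17, adjusted p = 0.0142) from ROBO4_KO to VLDLR_KO. For Rsad2 the fitted differences from WT were -2.05 in VLDLR_KO and -1.29 in ROBO4_KO.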

How the data were processed

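Libraries were made with the SMARTER mRNA-Seq kit from TRIzol RNA and sequenced as paired ends on a BGISEQ-500, per the labels' protocols; HISAT, Bowtie2 and GRCm38.p6 are named in the submitters' processing notes, while the quantifier is not given in the sources used here. The deposited values used here are estimated counts per gene and per transcript made by the authors, without normalization per the file headers. Of the gene values, 92.6% were whole, and all were rounded to whole numbers. Groups came from the genotype label and replicate numbers from accession order.

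The 10 knockout libraries were fitted in edgeR 4.0.16 (R 4.3.3): filterByExpr by genotype and code form, TMM, code form and genotype as terms, quasi-likelihood F tests, Benjamini-Hochberg over all 11909 genes, calls under 0.05. SE is the log2 fold change divided by the square root of F. The interaction with the code form, each form alone, all 15 libraries and 34032 transcripts were fitted likewise. The floor of a count of 0 is 3 counts; floors and intervals cover counting error only. Alternatives were other scalings and filters, DESeq2 1.42.0, limma-voom 3.58.1, no code form, a replicate block and leaving libraries out; leaving out VLDLR_KO replicates 1 and 2, copy sums and list counts with libraries left out were added after seeing the data. The fit was tested on simulated data.

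Named genes were Vldlr, Robo4, Qk and Slc17a5, and, among calls, per direction the 12 of largest fold that did not overlap and had at least 5 CPM and the 5 next of lowest p, up to 4 per list and direction (the lowest p where none was called), 6 by interaction and 5 on the chromosome with the highest share; names starting with Gm or LOC or ending in Rik were passed over except as copies. Csf1r, Csf3r, Adar, Fabp4, Ifi207, Ifi209 and Ifi211 were named after their values were seen. Some genes that the rule names are not reported here. The 40 lists (10 of other cells) and the comparison were chosen with earlier results of these data known. Gene counts of replicate pairs differed beyond sampling noise in every pair (chi-square over its degrees of freedom at least 5.71).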

Additional observations from a re-analysis of the deposited data

Results flagged for a closer look

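In 278 groups of 5 libraries (the named genes in each knockout, without those at 3 counts or fewer), a library stood apart from its group in 22. It did so where its gap to the next library was over 0.71 of the range. This cutoff is meant for about 1 in 20 groups of independent values with 1 common mean and spread. These groups mix 2 code forms and share the same libraries, so their number cannot be set against that rate. VLDLR_KO replicate 2 did so 7 times, always as the highest: Rpl29 (778 CPM), Ugt1a6b (81.1), Atp5e (3.74), Rps6 (10.2), Oas1g (19.3), Oas1a (90.4) and Gstm1 (625). VLDLR_KO replicate 1 was highest for Rab6b (0.272 CPM) and Adgre1 (1060) and lowest for Eno1 (240), replicate 3 highest for Gsta3 (5.24), and replicate 4 highest for Lrpap1 (247) and Fzd1 (4.07). ROBO4_KO replicate 1 was highest for Trim12a (19.1 CPM), Trim34b (0.213) and Rxra (111), replicate 3 for Fzd1 (9.18) and Mgst1 (162), and replicate 2 highest for Vldlr (1.96) and Thy1 (3.15) and lowest for Rps6 (34.9) and Glb1 (106).

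In 13 named genes the difference between the knockouts depended on the code form by the interaction test. The log2 difference with the digit after B minus that before it was -2.04 for Cxcr4, 1.96 for Sqle, -1.54 for Neurl3, -1.45 for Kif3a, -2.58 for Arl5c, -1.36 for Clk1, 3.01 for Fam171a1, -1.16 for Lyz2, 1.06 for Ccl9, 1.63 for Fcgr4, -1.45 for Fcgrt, 1.49 for Cyp51 and 0.91 for Pcna. VLDLR_KO had 2 libraries in the first form, both apart from the rest on the first principal component.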

How the results depend on the processing

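Beside 1229 genes called (555 higher, 674 lower), DESeq2 called 1877 (882 higher), the fit without the code form 526 (215 and 311), all 15 libraries 1901 (905 higher), the digit before B alone 374 (148 and 226) and the replicate block 460 (184 and 276). With 1 library left out the range was 728 to 1696 (317 to 789 higher, 411 to 907 lower). The 139 genes that depended on the code form were 936 by DESeq2 and 3 to 4613 with 1 library left out. Within the digit before B, 2175 calls became 374 when its 4 libraries were fitted alone. The 449 transcripts were 275 without the code form and 242 to 601 with 1 library left out. Of the 131 named genes called, 45 were called under every alternative other than the added ones. Vldlr went from -1.07 to 0.0165 without VLDLR_KO replicates 1 and 2. The replicate block paired libraries by code form and digit. In 4 pairs the deviations from the group means correlated at -0.44, -0.32, -0.23 and 0.23. With groups of 2 or 3 libraries these values cannot decide whether equal digits share a source, and no paired reading is given. Other scalings moved the median of all genes by under 0.1 on the log2 scale. The causes of these changes were not tested. With 2 libraries of a genotype in one code form, values within that form rest on few libraries, and genes near the floor, such as Vldlr and Robo4, are limited by depth.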
